A study of Rattus norvegicus with 10 samples.

Results

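Transcripts of the rat heart were compared between BT2 and vehicle at 24 h, in tissue of the area at risk (AAR), the myocardium that loses its blood flow while the left coronary artery is tied. The comparison was defined by treatment and time alone, and its members are 4 of the 10 samples of the series: 2 tissue libraries from rats given vehicle and 2 from rats given BT2, each with all genes. The study gave rats BT2, a small molecule for which only the code name is used, after myocardial ischaemia and reperfusion, and measured tissue RNA at 4 h and 24 h and nuclear RNA at 24 h. Both groups carried the same injury, and no uninjured heart entered the comparison. For tissue the sources used here state no dose of BT2, and for the nuclei 100 mg/kg. Titles give the time as after ligation, while the design text gives it as after the reperfusion injury, so the zero of the 24 h is not settled. Whether 2 libraries of 1 group stem from different rats is not stated, and a p-value then measures only the spread between these samples, which may be technical.

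An infarct in its first day holds dying and surviving cardiomyocytes, which run on fatty acids and oxidative phosphorylation, and incoming neutrophils and monocytes that clear debris. Resident fibroblasts, endothelial cells and macrophages begin to divide and to lay down a provisional matrix. Surviving cardiomyocytes under strain commonly lower genes of oxidative metabolism and adult contraction and raise natriuretic peptides, skeletal actin and cytoskeletal linkers.

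The vehicle libraries held 24480984 and 20813410 counts and the BT2 libraries 20767609 and 21648965. The libraries of a group correlated across genes at r = 0.994 in vehicle and 0.991 with BT2. The 10 genes with the most counts took 5.37% and 5.60% of all counts in vehicle and 9.17% and 7.75% with BT2. All 12 ventricular cardiomyocyte markers were detected in all 4 libraries, with a summed level of 33936 and 34230.1 CPM in vehicle and 76209.7 and 60989.7 CPM with BT2. CPM are counts scaled to a common library size with TMM factors, and they are not divided by gene length.

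BT2 and vehicle differed in a large part of the transcriptome, with rises and falls in similar number. Of 15216 genes tested, 6016 were called (39.5%), which here means an adjusted p under 0.05 in edgeR's quasi-likelihood test with Benjamini-Hochberg adjustment. Of these, 2873 were higher with BT2 (18.9% of the genes tested) and 3143 were lower (20.7%). A fold of at least 2 was reached by 1184 of the higher and 1078 of the lower genes, and a fold of at least 4 by 243 and 160. The median log2 fold change of all genes tested was -0.01, and the 95% interval of a gene reached a median of 0.40 to either side. In all 6016 called genes the groups did not overlap, which also held for 5744 and 6016 of the genes tested with BT2 above and below vehicle. Genes called higher with BT2 took up 24.6% and 24.1% of the counts in the vehicle libraries and 43.1% and 40.4% in the BT2 libraries, and genes called lower went from 32.8% and 33.5% to 16.6% and 19.0%. Fewer genes passed with 1 library at 24 h left out: 1647 higher and 1822 lower genes passed without vehicle replicate 1, 1484 and 1588 without vehicle replicate 2, 1490 and 1492 without BT2 replicate 1, and 2277 and 2281 without BT2 replicate 2. For gene lists whose count moved by over 1.5 times in this way, the counts are given below for leaving out vehicle replicate 1, vehicle replicate 2, BT2 replicate 1 and BT2 replicate 2, always in this order.

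**Figure D1:**
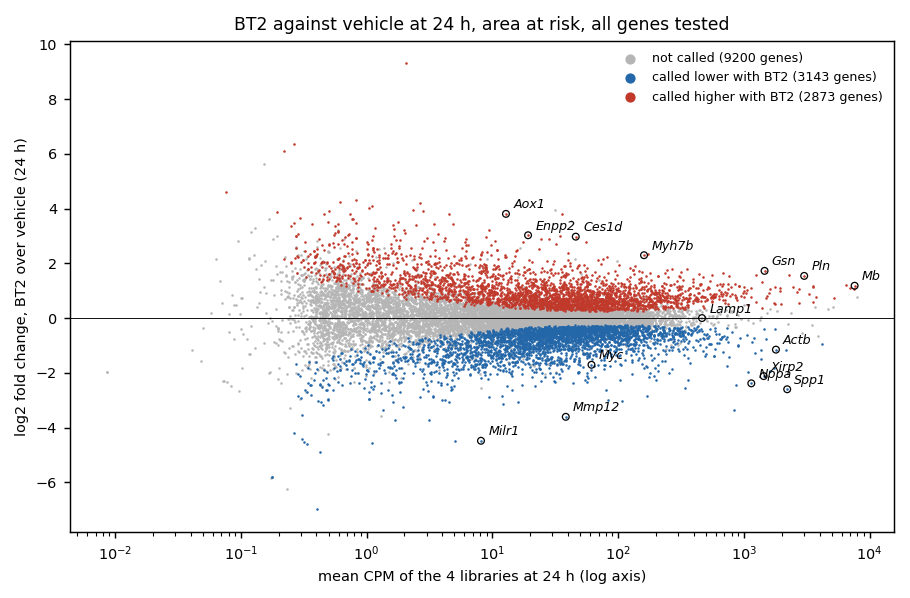
Each point is 1 of the 15216 genes tested, with its mean CPM over the 4 libraries at 24 h (log axis) against the log2 fold change of BT2 over vehicle; red and blue mark the 2873 genes called higher and the 3143 called lower, and circles mark genes named in the text. Cardiac genes such as Pln and Mb lie above 0 on the right, with Spp1, Nppa and Xirp2 below 0 at similar CPM.

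The largest rises included enzymes, transporters and secreted proteins. Aox1, an aldehyde oxidase, had 1.21 and 2.24 CPM in the vehicle libraries and 27.4 and 20.6 CPM with BT2 (log2 fold change 3.81 ± 0.38, SE; edgeR adjusted p = 0.000695). Enpp2, the enzyme autotaxin that makes the lipid signal lysophosphatidic acid, had 4.30 and 4.10 CPM in vehicle and 38.5 and 30.1 CPM with BT2 (3.03 ± 0.16; edgeR adjusted p = 0.000248). Where a level follows as one pair against another, the first pair is vehicle replicates 1 and 2 and the second BT2 replicates 1 and 2. Ces1d, a carboxylesterase, had 12.01 and 8.74 against 93.8 and 69.9 CPM (2.98 ± 0.21), though it has near-identical copies among which reads could be split. In each of these genes both BT2 libraries lay far above both vehicle libraries. The ubiquitin ligase Trim50 (2.89), the F-box protein Fbxw10 (2.95), the ferritin receptor Scara5 (2.89), the cyclic AMP phosphodiesterase Pde4c (2.83), the organic cation transporter Slc22a3 (2.79) and the presynaptic scaffold Rims1 (3.23) were also among the 10 largest log2 fold changes of genes with a mean of at least 5 CPM.

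The largest falls included genes of matrix and leukocyte attraction. Milr1, an immunoglobulin-like receptor of mast and myeloid cells, had 10.8 and 20.3 CPM in vehicle and 0.949 and 0.449 CPM with BT2 (-4.48 ± 0.75; edgeR adjusted p = 0.00376). Ltbp2, a binding protein of latent TGF-beta, had 155 and 143 against 14.5 and 23.4 CPM (-2.98 ± 0.21). As in every called gene, the groups of Milr1 and Ltbp2 did not overlap. The macrophage elastase Mmp12 (-3.60), the prion-like protein gene Prnd (-3.05), the AP-1 factor Fosl1 (-2.86) and the monocyte attractants Ccl12 (-3.15), Ccl7 (-3.04) and Ccl2 (-2.85) also fell. With 1 library left out, the call of Ccl2 was lost in 4 of 8 fits, of Ccl7 in 3 and of Fosl1 in 2. Cxcl6 had the most negative value among genes of at least 5 CPM, -4.50 ± 1.48 (edgeR adjusted p = 0.0499), from 18.6 and 0.746 CPM in vehicle against 0.136 and 0.693 CPM with BT2. It rested on 1 vehicle library, and its call was lost in 7 of 8 fits that left out 1 library.

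**Figure D2:**
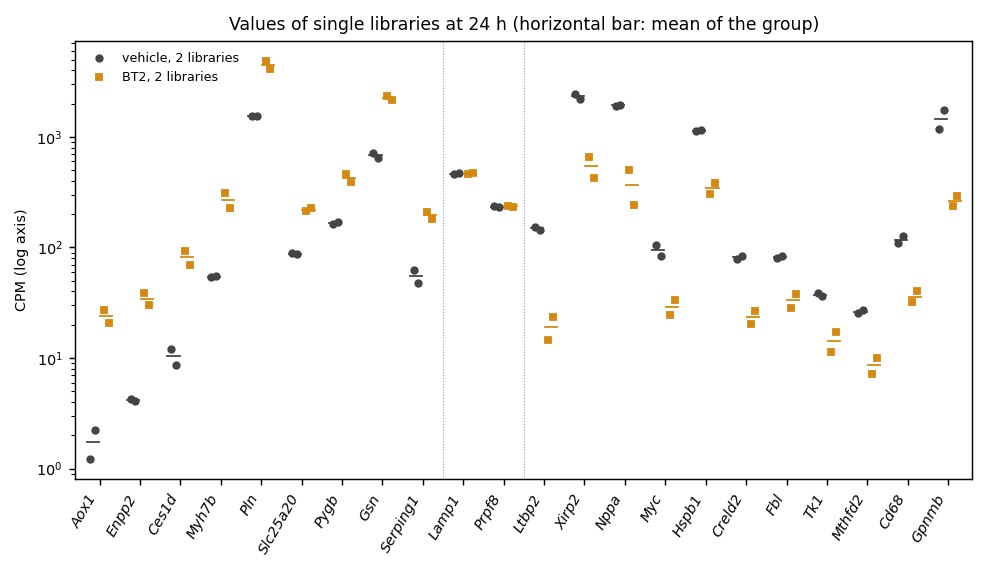
CPM of 22 named genes in each of the 4 libraries (log axis); circles are the 2 vehicle libraries, squares the 2 BT2 libraries and horizontal bars the group means. The 9 genes on the left were higher with BT2, Lamp1 and Prpf8 in the middle were not called, and the 11 on the right were lower; the libraries of a group lie widest apart in Nppa with BT2.

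Genes of oxidative energy metabolism were higher with BT2 in nearly every member. Of 21 genes of the tricarboxylic acid cycle and pyruvate dehydrogenase 20 were called higher and 0 lower, with a median log2 fold change of 0.75. Sdha, the flavoprotein of succinate dehydrogenase, had 539 and 599 CPM in vehicle and 1100.3 and 972 CPM with BT2 (0.87 ± 0.12; edgeR adjusted p = 0.00166), and Suclg1 of succinyl-CoA ligase rose by 0.78. Of the respiratory chain, 36 of 37 tested subunits of complex I, 9 of 9 of complex III, 12 of 15 of complex IV and 16 of 16 of ATP synthase were higher, 0 of these were lower, and their medians lay between 0.72 and 0.76. Within the TCA list the values ran from 0.44 to 1.09. Cox8b, a muscle-type subunit of complex IV, had 304 and 318 CPM in vehicle and 673 and 601 with BT2 (1.04 ± 0.12). With 1 library left out, the fits gave 13, 14, 13 and 21 TCA genes called higher.

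Genes that build or move within mitochondria were less uniform than the enzymes. Of 72 mitochondrial ribosomal proteins 25 rose and 2 fell (median 0.23), of 24 assembly factors 11 rose (median 0.26), and of 24 genes of protein import and folding 6 rose and 4 fell (median 0.06). Tomm40, the channel of the outer membrane translocase, had 83.3 and 89.8 CPM in vehicle and 60.5 and 54.8 CPM with BT2 (-0.59 ± 0.10; edgeR adjusted p = 0.00296), while the import chaperone Timm8b rose by 0.53. The fits with 1 library left out gave 12, 8, 8 and 23 mitochondrial ribosomal proteins, 5, 7, 3 and 10 assembly factors and 2, 2, 2 and 6 import genes called higher, and 2, 1, 2 and 1 import genes called lower. Coenzyme Q synthesis had 9 of 13 members higher and 3 lower, with Adck3, an atypical kinase needed for coenzyme Q, at 176 and 190.2 CPM in vehicle and 487 and 466 with BT2 (1.38 ± 0.13; edgeR adjusted p = 0.000576). Of 14 genes of mitochondrial fusion, fission and mitophagy 11 rose and 1 fell, among them Pink1, the kinase that marks damaged mitochondria (189 and 195 against 461 and 391 CPM; 1.15 ± 0.13), and 4, 7, 5 and 9 rose with 1 library left out. Called in either direction were 37.5% of mitochondrial ribosomal proteins, 45.8% of assembly factors, 41.7% of import genes and 39.5% of Slc25 carriers. These shares lay near the 39.5% of all genes tested. Over all genes tested the calls were split, at 18.9% higher and 20.7% lower, while 0 assembly factors fell. Of 38 Slc25 carriers 10 rose and 5 fell (the latter 4, 3, 4 and 3 with 1 library left out). Slc25a4, the adenine nucleotide carrier of heart mitochondria, had 2297 and 2123 against 5043 and 4614 CPM (1.13 ± 0.15), and Slc25a42, a coenzyme A carrier, rose by 1.19.

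Transcripts for storing, releasing and buffering fuel rose in several pathways. Glycogen metabolism had 11 of 15 members higher and 0 lower (median 0.78). Pygb, a glycogen phosphorylase, had 163 and 171 CPM in vehicle and 463 and 389 CPM with BT2 (1.35 ± 0.11; edgeR adjusted p = 0.000393). Phkg1, the catalytic subunit of phosphorylase kinase, had 1.04 and 0.994 against 6.87 and 7.58 CPM (2.82 ± 0.21; edgeR adjusted p = 0.000331). Both genes act in glycogen breakdown, and in both the groups were far apart. Of 8 genes of ketone body use and monocarboxylate transport 6 rose, with Oxct1, the enzyme that activates ketone bodies for oxidation, at 0.82 ± 0.15 and Acat1 at 1.07 ± 0.18. Triglyceride storage and lipolysis was split, with 6 of 15 higher and 3 lower: Lpl, the lipoprotein lipase, had 836 and 779.5 CPM in vehicle and 2247 and 1758 CPM with BT2 (1.31 ± 0.16), and the lipid droplet proteins Plin5 and Cidea rose by 1.70 and 1.52. Ckmt2, the mitochondrial creatine kinase of muscle, had 1143 and 1068 against 2612 and 2200.0 CPM (1.12 ± 0.13), in a list of 11 phosphotransfer genes with 6 higher and 2 lower. Leaving out 1 library gave 7, 6, 6 and 11 glycogen genes and 2, 3, 4 and 6 ketone genes called higher.

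**Figure D3:**
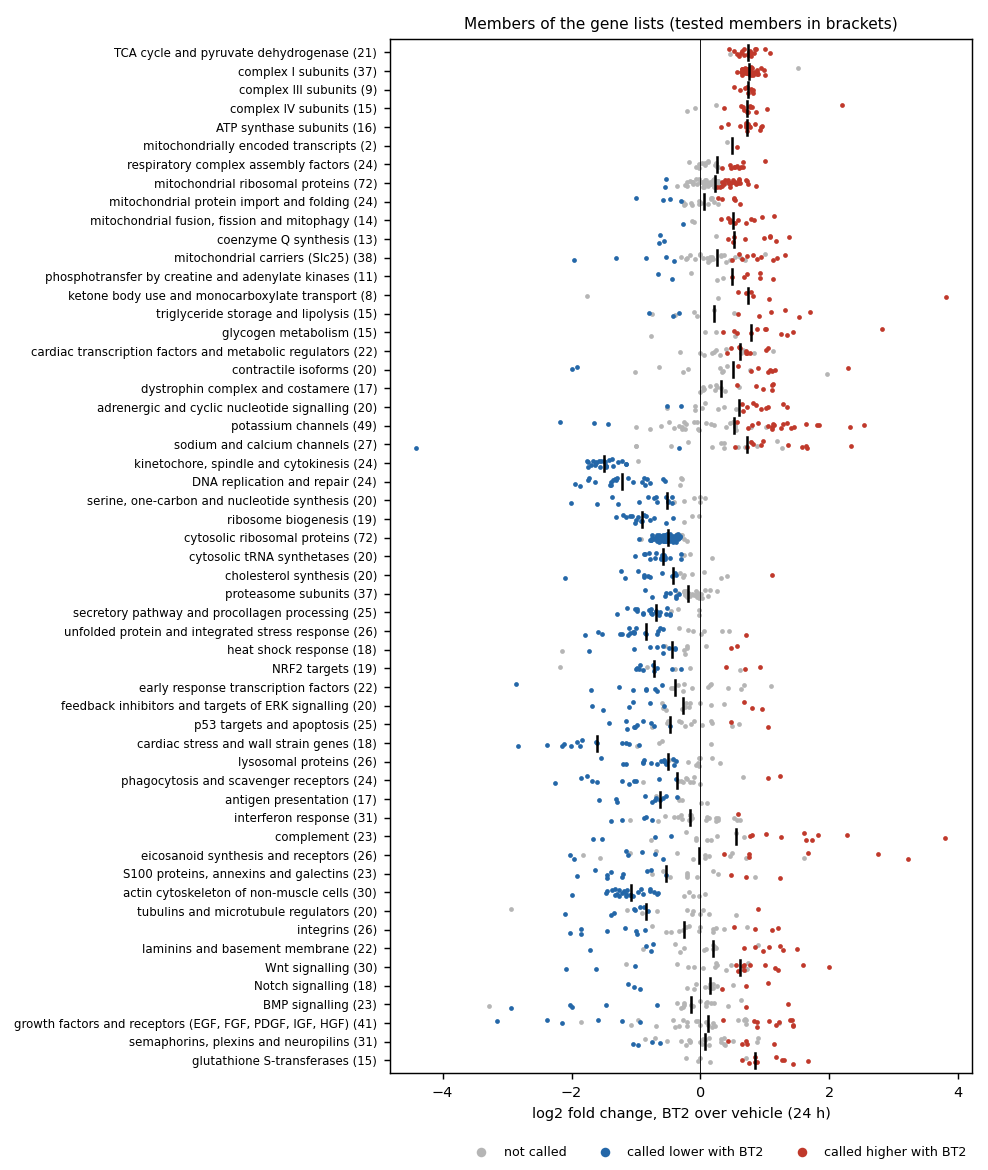
Each point is a tested member of a list, at its log2 fold change of BT2 over vehicle at 24 h, and the black bar is the median of the list; 55 lists are drawn, with the number of tested members in brackets. The respiratory and TCA lists lie near 0.75 with few uncalled members, and the lists of cell division, ribosome biogenesis, cardiac stress and the actin cytoskeleton lie below -0.9.

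Most contractile isoforms that changed were higher with BT2. Of the isoforms tested 50% were called, against 39.5% of all genes tested. Among all genes of 500 CPM and over, a range that holds Myh6 and Tnni3, the share was 75.8%. Of 20 isoforms 8 rose and 2 fell, the latter skeletal actin, Acta1, and Tnnt1, the slow skeletal troponin T, which is named here after its value was seen. Myh6, the fast alpha myosin heavy chain, had 4700.1 and 4226 CPM in vehicle and 10615 and 8585 CPM with BT2 (1.11 ± 0.17; edgeR adjusted p = 0.00227), and Tnni3, cardiac troponin I, had 2253 and 2169.9 against 5235 and 4617 CPM (1.16 ± 0.15). Myh7b, a slow-type myosin heavy chain gene, changed most, from 53.8 and 55.0 CPM in vehicle to 308 and 227 CPM with BT2 (2.297 ± 0.17; edgeR adjusted p = 0.000331). Acta1, skeletal actin, went the other way, from 2762 and 2325 against 927 and 419 CPM (-1.92 ± 0.35; edgeR adjusted p = 0.00537). The BT2 libraries differed about as much from each other in Acta1 as they did in Nppa, and both lay below vehicle. Ttn, the titin gene, rose by 0.59 ± 0.17, and its call was lost in 3 of 8 fits that left out 1 library. In bulk tissue, fewer cells of a type and less RNA per cell cannot be told apart, which holds for every gene here. The summed level of the ventricular markers was higher with BT2 together with the energy, contractile and channel lists, and its part in them was not tested.

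Regulators and signalling genes of cardiomyocytes were higher in part. Calls were made for 45.5% of the regulators and 60% of the adrenergic and cyclic nucleotide genes below, against 39.5% of all genes tested. Of 22 cardiac transcription factors and metabolic regulators 10 rose and 0 fell (median 0.61), including Gata6 (61.0 and 58.5 against 104 and 99.4 CPM; 0.76 ± 0.10) and Nkx2-5 (0.70 ± 0.14), both factors of heart development. With 1 library left out, the fits gave 3, 5, 4 and 7 of them called higher, and total counts as the only scaling gave 5. Adrenergic and cyclic nucleotide signalling had 10 of 20 higher and 2 lower, with the phosphodiesterase Pde3a at 92.4 and 106 against 212 and 199 CPM (1.05 ± 0.11; edgeR adjusted p = 0.000669) and the adenylate cyclase Adcy5 at 0.95 ± 0.10. The fits with 1 library left out gave 6, 7, 6 and 9 of these genes called higher. Pln, the phospholamban that restrains the calcium pump, had 1549 and 1539.7 CPM in vehicle and 4882 and 4115 with BT2 (1.54 ± 0.14; edgeR adjusted p = 0.000555), next to the pump Atp2a2 itself at 1.22 ± 0.16. Of 17 genes of the dystrophin complex and costamere 6 rose and 0 fell (35.3% called), among them alpha-sarcoglycan, Sgca (69.7 and 69.4 against 160.1 and 144 CPM; 1.13 ± 0.10), and the cardiac formin Fhod3 (1.11).

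Ion channel transcripts changed in both directions, more often upward. Of 49 potassium channel genes 19 rose and 3 fell (median 0.53). Of 27 sodium and calcium channel genes 11 rose and 2 fell (median 0.73). The shares called in either direction were 44.9% and 48.1%, near the 39.5% of all genes tested. Over all genes tested 18.9% were called higher and 20.7% lower. Kcnd3, the pore of the transient outward current, had 10.38 and 9.198 CPM in vehicle and 30.1 and 23.8 CPM with BT2 (1.46 ± 0.14; edgeR adjusted p = 0.000655). Kcna2, a delayed rectifier, had 2.26 and 3.15 against 15.0 and 12.1 CPM (2.33 ± 0.22), and the background potassium channel Kcnk2 rose by 1.80 ± 0.18. Both Kcnd3 libraries with BT2 stood well above vehicle. The L-type calcium channel genes Cacna1c (154 and 135 against 293 and 261 CPM; 0.94 ± 0.12) and Cacnb2 (0.78) rose as well, as did the sodium channel family member Scn7a (1.58 ± 0.17). Leaving out 1 library gave 13, 12, 12 and 15 potassium channel genes called higher.

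Genes of cell division were lower with BT2 in nearly every member. Of 24 genes of kinetochore, spindle and cytokinesis 23 were lower and 0 higher (median -1.49), and of 24 genes of DNA replication and repair 21 were lower and 0 higher (median -1.21). Incenp, a scaffold of the chromosomal passenger complex, had 42.0 and 38.7 CPM in vehicle and 14.3 and 20.2 CPM with BT2 (-1.22 ± 0.20; edgeR adjusted p = 0.00271), and the mitotic kinase Aurka had 14.7 and 15.3 against 3.62 and 6.44 CPM (-1.57 ± 0.27). Tk1, thymidine kinase, had 38.6 and 36.3 against 11.3 and 17.3 CPM (-1.39 ± 0.19; edgeR adjusted p = 0.00145). In Aurka and Tk1 the first BT2 library was the lowest and both lay below vehicle. Of 20 genes of serine, one-carbon and nucleotide synthesis 14 fell and 0 rose, the smallest p being that of Mthfd2, a mitochondrial folate enzyme (25.7 and 27.0 against 7.23 and 10.03 CPM; -1.61 ± 0.18; edgeR adjusted p = 0.000857). With 1 library left out, the fits gave 10, 12, 6 and 22 kinetochore genes, 15, 17, 14 and 17 replication genes and 10, 9, 11 and 11 one-carbon genes called lower.

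The promoters of these genes were read for short motif letters, as a description of the sequences and not as evidence of binding. RefSeq on the build GRCr8 gave 1 promoter, of 250 bases before to 50 bases after the start, for 10004 of the 15216 genes tested. E2F letters (TTTCCCGC, TTTGGCGC, TTTCGCGC or TTTGCCGC, on either strand) stood in 114 of 2314 promoters of genes called lower (4.93%), in 41 of 1837 called higher (2.23%), in 217 of 5853 not called (3.71%) and in 2.28% of all 24206 promoters of that length. Of 44 cell division genes called lower 37 had a promoter, and 8 of these held E2F letters: Ung, Pola1, Pole, Fancd2, Chek1, Clspn, Tyms and Lig1. The 250 bases before the start are shown for the 3 with the smallest p whose letters lie there, because the cell division genes moved together; capitals mark the E2F letters. Ung encodes uracil DNA glycosylase (chr12:48154046-48154295, minus strand), Pola1 the catalytic subunit of DNA polymerase alpha (chrX:62342356-62342605, minus strand) and Chek1 a checkpoint kinase (chr8:44629844-44630093, minus strand). The letters begin 20, 172 and 28 bases before the start.
Ung: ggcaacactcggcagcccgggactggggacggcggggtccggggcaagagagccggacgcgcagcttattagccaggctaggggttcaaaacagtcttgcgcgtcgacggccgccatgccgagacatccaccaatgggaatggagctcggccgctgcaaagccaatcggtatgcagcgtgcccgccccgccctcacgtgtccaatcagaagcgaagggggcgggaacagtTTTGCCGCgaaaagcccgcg
Pola1: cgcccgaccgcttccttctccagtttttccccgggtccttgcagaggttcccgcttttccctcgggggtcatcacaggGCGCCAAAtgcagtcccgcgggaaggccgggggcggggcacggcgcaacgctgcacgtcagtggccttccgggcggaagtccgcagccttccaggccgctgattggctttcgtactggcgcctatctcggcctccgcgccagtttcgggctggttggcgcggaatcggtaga
Chek1: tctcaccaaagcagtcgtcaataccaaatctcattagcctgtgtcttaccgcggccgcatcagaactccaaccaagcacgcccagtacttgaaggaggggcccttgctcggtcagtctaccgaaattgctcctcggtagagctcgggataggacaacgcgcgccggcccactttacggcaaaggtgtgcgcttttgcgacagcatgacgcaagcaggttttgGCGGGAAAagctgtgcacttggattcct
Their log2 fold changes were -1.04 ± 0.17 for Ung, -0.86 ± 0.14 for Pola1 and -1.12 ± 0.22 for Chek1. For Ung the level was 19.8 and 24.8 CPM in vehicle and 9.63 and 12.03 CPM with BT2.

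Among genes that rose, letters of the estrogen-related receptors (ERR), which are known regulators of mitochondrial and cardiac genes, were read in the same way. TCAAGGTCA, on either strand, stood in 10 of 1837 promoters of genes called higher (0.544%), in 2 of 2314 called lower (0.0864%), in 13 of 5853 not called (0.222%) and in 0.376% of all promoters. Of 259 energy and heart muscle list members called higher 187 had a promoter, and 3 held the letters: Myh7b, Sdhd and Timm8b. The promoters of Myh7b (chr3:164558090-164558339, plus strand) and Timm8b (chr8:59850487-59850736, plus strand) hold them before the start, at 247 and 139 bases; capitals mark the ERR letters, which in Myh7b read on the opposite strand.
Myh7b: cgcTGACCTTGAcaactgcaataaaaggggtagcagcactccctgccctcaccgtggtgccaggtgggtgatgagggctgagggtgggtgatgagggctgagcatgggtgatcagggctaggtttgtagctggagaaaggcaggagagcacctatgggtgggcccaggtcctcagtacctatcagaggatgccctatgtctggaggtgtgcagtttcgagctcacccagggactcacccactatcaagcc
Timm8b: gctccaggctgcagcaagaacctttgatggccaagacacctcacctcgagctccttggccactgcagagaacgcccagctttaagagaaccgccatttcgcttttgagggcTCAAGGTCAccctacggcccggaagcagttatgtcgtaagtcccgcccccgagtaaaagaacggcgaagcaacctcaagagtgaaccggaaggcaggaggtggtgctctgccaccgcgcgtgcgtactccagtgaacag
Of the other letters searched on both strands, the NRF1 site GCGCATGCG stood in 1.8% of promoters called higher and 3.76% called lower, the CRE TGACGTCA in 2.4% and 3.63%, the AP-1 site TGACTCA in 3.81% and 3.76%, CCAAT in 39% and 39.3%, the CHR element TTTGAA in 10.9% and 13.1%, and the CArG box in 1.2% and 1.38%. Matches of different motifs overlapped in 16 tested promoters at most, for CCAAT and the CArG box.

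Transcripts for making ribosomes and proteins were lower in most members, by modest amounts. Of 19 genes of ribosome biogenesis 16 were lower and 0 higher (median -0.91), of 72 cytosolic ribosomal proteins 64 were lower and 0 higher (median -0.50), and of 20 cytosolic tRNA synthetases 17 were lower and 0 higher (median -0.58). Fbl, fibrillarin, the methyltransferase of ribosomal RNA, had 79.8 and 84.4 CPM in vehicle and 28.3 and 38.1 CPM with BT2 (-1.30 ± 0.14; edgeR adjusted p = 0.000802). Bop1, which processes the large subunit, had 58.3 and 59.7 against 24.3 and 28.9 CPM (-1.15 ± 0.13). Myc, the transcription factor known to drive ribosome biogenesis, had 105 and 83.6 against 24.4 and 33.4 CPM (-1.70 ± 0.16; edgeR adjusted p = 0.000587). Rps2 had 812 and 832 against 462 and 507 CPM (-0.76 ± 0.11), and ribosomal proteins have processed copies that can share reads. The fits with 1 library left out gave 43, 34, 39 and 55 ribosomal proteins called lower. Of 37 proteasome subunits 9 were lower (24.3%, against 20.7% of all genes tested) and 0 higher, with a median of -0.20, leaving out 1 library gave 4, 3, 3 and 9, and total counts as the only scaling gave 14.

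Most genes of the secretory pathway and of its stress response were lower too. Of 25 genes of protein secretion and procollagen processing 20 were lower and 0 higher (median -0.69), and of 26 members of the list for unfolded proteins and the integrated stress response 18 were lower and 1 higher (median -0.85). Creld2, a calcium-binding protein of the endoplasmic reticulum induced by misfolded protein, had 78.2 and 84.6 CPM in vehicle and 20.3 and 26.8 CPM with BT2 (-1.79 ± 0.16; edgeR adjusted p = 0.000447). Manf, a secreted factor of the same response, had 159 and 167 against 69.8 and 79.9 CPM (-1.12 ± 0.10), and the cochaperone Dnajc3 fell by 1.09 ± 0.11. P4hb, the disulphide isomerase that is also a subunit of prolyl hydroxylase, had 950.4 and 986 against 501 and 546 CPM (-0.89 ± 0.10). In Creld2, Manf and P4hb the vehicle libraries lay close together and both BT2 libraries well below them. The heat shock list had 9 of 18 members lower and 2 higher, with Hspb1, the small heat shock protein 27, at 1129.9 and 1151 against 306 and 381 CPM (-1.73 ± 0.26; edgeR adjusted p = 0.00218). Of 19 NRF2 targets 10 fell and 3 rose, with Gclc, an enzyme of glutathione synthesis, at -0.89 ± 0.12. Leaving out 1 library gave 4, 4, 5 and 5 heat shock genes and 9, 5, 5 and 10 NRF2 targets called lower.

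Genes that mark strained or injured myocardium were lower. Of 18 cardiac stress and wall strain genes 14 fell and 0 rose (median -1.61). Xirp2, an actin-binding protein of the intercalated disc, had 2463 and 2216 CPM in vehicle and 656 and 424 CPM with BT2 (-2.12 ± 0.23; edgeR adjusted p = 0.000832). Nppa, atrial natriuretic peptide, had 1911 and 1940.2 against 499.8 and 239.5 CPM (-2.38 ± 0.32; edgeR adjusted p = 0.00168). Nppb, the ventricular peptide, had 489 and 472 against 291 and 153 CPM (-1.11 ± 0.32; edgeR adjusted p = 0.03), and its call was lost in 3 of 8 fits that left out 1 library. In both peptides the second BT2 library was clearly lower than the first, and both lay below vehicle. The filamin Flnc (-1.84), the muscle LIM protein Csrp3 (-1.15), the endocytic adaptor Dab2 (-1.21) and the transcription factor Runx1 (-1.86) fell too.

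Early response, ERK feedback and apoptosis genes were called in either direction in 40.9%, 45.0% and 48.0% of members, near the 39.5% of all genes tested. Over all genes tested 18.9% were called higher and 20.7% lower. Of 22 early response transcription factors 9 fell and 0 rose (median -0.39), and leaving out 1 library gave 4, 1, 4 and 2 called lower. Fos had 50.1 and 81.8 CPM in vehicle and 30.9 and 23.9 CPM with BT2 (-1.27 ± 0.29; edgeR adjusted p = 0.0128). Its call was lost without vehicle replicate 2 or BT2 replicate 2 at 24 h, at -0.87 and -1.09. Egr1 was not called, with 36.0 and 44.8 against 63.4 and 27.0 CPM (0.16 ± 0.38; edgeR adjusted p = 0.764), and neither was Fosb (4.93 and 9.98 against 9.13 and 1.998 CPM; edgeR adjusted p = 0.721). The groups overlapped in both, and the first BT2 library was several-fold above the second in Fosb. Of 20 feedback inhibitors and targets of ERK signalling 6 fell and 3 rose, with the ETS factor Etv4 at -1.51 ± 0.29 and the inhibitor Spry1 at 0.68 ± 0.11; leaving out 1 library gave 2, 3, 3 and 3 called lower. Of 25 p53 targets and apoptosis genes 10 fell and 2 rose, among the falls the pore-forming Bax (36.4 and 37.8 against 17.5 and 20.1 CPM; -0.98 ± 0.13) and Bak1 (-0.89 ± 0.12).

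Genes of the cytoskeleton of non-muscle cells were lower in most members. Of 30 actin cytoskeleton genes 25 were lower and 0 higher (median -1.08), and 22 to 24 were lower when any 1 library at 24 h was left out. Actb, beta-actin, had 2341 and 2626 CPM in vehicle and 1004 and 1234 CPM with BT2 (-1.15 ± 0.14; edgeR adjusted p = 0.00114). Cnn2, a calponin, had 58.3 and 52.0 against 23.6 and 25.2 CPM (-1.18 ± 0.11), and Arpc5, of the complex that branches actin filaments, had 216 and 217 against 88.0 and 108 CPM (-1.15 ± 0.12). In all 3 genes both BT2 libraries lay below both vehicle libraries, as in every gene called lower. Of 20 tubulins and microtubule regulators 8 fell and 1 rose (45.0% called), with Tubb6 at 327 and 301 against 50.8 and 95.3 CPM (-2.10 ± 0.28), and leaving out 1 library gave 5, 4, 4 and 6 called lower. Among 23 S100 proteins, annexins and galectins 10 fell and 3 rose, among the falls Anxa4 (-1.22 ± 0.12) and S100a11 (-1.45 ± 0.16).

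Phagocyte and lysosome genes were lower in part, and complement genes changed in both directions. Of 26 lysosomal proteins 16 fell and 0 rose, with Lgmn, the protease legumain, at 667 and 653 CPM in vehicle and 249 and 325 CPM with BT2 (-1.20 ± 0.14; edgeR adjusted p = 0.000951) and cathepsin Z, Ctsz, at -1.55 ± 0.18. Of 24 phagocytosis and scavenger receptors 11 fell and 2 rose: the integrin Itgam fell by 1.85 ± 0.32, while Cd36, which is also the fatty acid transporter of muscle and endothelium, had 279 and 261 against 607 and 666 CPM (1.24 ± 0.13), and Gas6 rose by 1.05. Of 17 antigen presentation genes 11 fell and 0 rose. The interferon list had 5 of 31 lower and 1 higher, a share of calls below that of all genes tested. In the complement list 10 of 23 rose and 4 fell. Serping1, the C1 inhibitor, had 62.1 and 47.2 CPM in vehicle and 210.0 and 180.1 CPM with BT2 (1.83 ± 0.18; edgeR adjusted p = 0.000669), Masp1 had 29.9 and 20.2 against 89.1 and 78.1 CPM (1.74 ± 0.19) and C4b, which has a close copy that can share reads, had 6.004 and 4.23 against 24.3 and 25.7 CPM (2.28 ± 0.24). Named after their values were seen, the receptors C3ar1 and C5ar1 were among the 4 complement genes that fell, at -1.67 and -1.52, and the pore component C6 rose by 3.80. With 1 library left out, the fits gave 14, 9, 10 and 15 lysosomal, 6, 5, 3 and 9 phagocytosis, 6, 4, 10 and 5 antigen presentation, 3, 1, 1 and 5 interferon and 2, 1, 1 and 3 complement genes called lower.

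Some lipid mediator genes rose and others fell. Of 26 genes of eicosanoid synthesis and receptors 6 rose (4, 3, 4 and 5 with 1 library left out) and 7 fell, a share of calls of 50% against 39.5% of all genes tested. Pla2g2a, a secreted phospholipase, had 9.58 and 19.0 CPM in vehicle and 95.6 and 98.1 CPM with BT2 (2.77 ± 0.33; edgeR adjusted p = 0.00125). Ptgds, a prostaglandin D2 synthase, had 4.27 and 4.39 against 15.9 and 11.7 CPM (1.67 ± 0.23), and Ptges3, a prostaglandin E synthase that also serves as an HSP90 cochaperone, fell by 0.70 ± 0.10. Pla2g2a and Ptgds had both BT2 libraries far above vehicle.

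Signalling and matrix families held members that rose and members that fell. Most had shares called in either direction near the 39.5% of all genes tested, which splits into 18.9% higher and 20.7% lower. The shares were 46.7% of Wnt, 33.3% of Notch, 30.4% of BMP, 41.5% of growth factor, 50% of laminin and 46.2% of integrin genes. Of 30 Wnt genes 11 rose (4, 4, 5 and 6 with 1 library left out) and 3 fell, with the secreted modulator Dkk3 at 80.4 and 69.4 CPM in vehicle and 166 and 170.4 CPM with BT2 (1.17 ± 0.12; edgeR adjusted p = 0.000669) and the coreceptor Lrp5 at 0.67 ± 0.13. Of 18 Notch genes 3 rose and 3 fell: the receptor Notch2 (-0.94 ± 0.14) and the nuclear effector Rbpj (171 and 170.0 against 70.5 and 86.9 CPM; -1.12 ± 0.13) fell, and the target Heyl rose by 1.06 ± 0.16. Among 23 BMP genes 2 rose and 5 fell (the latter 3, 3, 1 and 4 with 1 library left out), and the ligands Bmp2 and Bmp6 went in opposite directions, at -1.47 ± 0.18 and 0.71 ± 0.15, the call of Bmp6 being lost without vehicle replicate 1 or BT2 replicate 2 at 24 h (0.66 and 0.64). Of 41 growth factors and receptors 11 rose (6, 7, 4 and 9 with 1 library left out) and 6 fell. Hbegf, an EGF receptor ligand, had 34.2 and 33.6 CPM in vehicle and 8.09 and 7.30 CPM with BT2 (-2.14 ± 0.28; edgeR adjusted p = 0.00163), while Igfbp5 and Fgf13 rose by 1.06 and 0.88. Of 22 laminin and basement membrane genes 7 rose (5, 6, 4 and 7 with 1 library left out) and 4 fell, with Lamb2 at 1.07 ± 0.14, Lama2, which anchors the muscle fibre, at 0.98 ± 0.11, Col18a1 at -1.71 ± 0.22 and Col4a1 at -0.77 ± 0.15. Of 26 integrins 4 rose and 8 fell, among the latter Itgb1 at -0.86 ± 0.13, and leaving out 1 library gave 2, 1, 1 and 2 higher and 7, 6, 5 and 6 lower.

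Markers of the cell types of the heart did not move together. Of 12 ventricular cardiomyocyte markers 11 were higher and 0 lower (median 1.04), and of 11 fibroblast markers 7 were higher and 0 lower, while of 10 activated fibroblast markers 7 were lower and 0 higher (median -1.56) and of 13 monocyte and macrophage markers 11 were lower and 0 higher (median -1.31). Gsn, gelsolin, from the fibroblast marker list, had 711 and 647 CPM in vehicle and 2336 and 2156 CPM with BT2 (1.73 ± 0.12; edgeR adjusted p = 0.000331), and Fbln1, fibulin-1, had 43.5 and 37.3 against 146 and 108 CPM (1.65 ± 0.18). Fn1, fibronectin, had 1402 and 2037 against 358 and 530.0 CPM (-1.95 ± 0.29; edgeR adjusted p = 0.00224). Gsn and Fbln1 were thus higher and Fn1 lower with BT2; as in every called gene, their groups did not overlap. Gpnmb, a glycoprotein of lipid-laden macrophages, had 1172 and 1739 CPM in vehicle and 237 and 294 CPM with BT2 (-2.46 ± 0.24), and Spp1, osteopontin, had 2839 and 4761 against 420.0 and 836 CPM (-2.60 ± 0.39; edgeR adjusted p = 0.00247). The summed level of the macrophage markers was 5989 and 8632 CPM in vehicle and 1491 and 2083 CPM with BT2, with 0 of them at 0. In vehicle Spp1 and Gpnmb made up most of this sum, and both fell by more than the list median of -1.31. The part of the macrophage marker levels in the lysosomal, phagocytosis and cell division results was not tested. The fits with 1 library left out gave 8, 10, 7 and 9 macrophage markers called lower.

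Neutrophil markers gave few calls, while T and NK cell and endothelial markers were called about as often as all genes tested. Lymphatic, pericyte and smooth muscle, and dendritic cell markers were called more often. Of the neutrophil markers 9.1% were called and of the T and NK cell markers 36.4%, against 39.5% of all genes tested. The shares were 46.2% for endothelial, 57.1% for lymphatic, 58.3% for pericyte and smooth muscle and 75% for dendritic cell markers. Of 11 neutrophil markers 1 passed, Trem1 (13.4 and 13.9 CPM in vehicle and 2.22 and 5.99 CPM with BT2; -1.72 ± 0.55; edgeR adjusted p = 0.0441), although the median of the list was -1.19. The call of Trem1 was lost in 3 of 8 fits that left out 1 library. Of 11 T and NK cell markers 2 rose and 2 fell: Cd8a had 18.5 and 39.3 against 4.88 and 5.79 CPM (-2.43 ± 0.36), whereas Cd4, which rat macrophages express too, had 37.9 and 39.5 against 73.7 and 56.8 CPM (0.75 ± 0.13). Of 13 endothelial markers 6 rose (3, 1, 2 and 4 with 1 library left out) and 0 fell, among them the water channel Aqp1 (0.76 ± 0.11), and Vwf rose by 0.70 ± 0.17, a call lost in 3 of 8 such fits. Vcam1, the leukocyte adhesion molecule, was not called, with 19.3 and 17.1 CPM in vehicle and 23.8 and 20.6 CPM with BT2 (0.29 ± 0.13; edgeR adjusted p = 0.117). Of 12 pericyte and smooth muscle markers 5 rose and 2 fell, with smooth muscle myosin, Myh11, at 59.8 and 50.4 against 133 and 115 CPM (1.17 ± 0.18) and desmin, Des, which cardiomyocytes also express, at -0.96 ± 0.18. In the lymphatic list the transcription factor Prox1 rose by 1.32 ± 0.16 and Pdpn fell by 1.74 ± 0.41, a call also lost in 3 of 8. Of 8 dendritic cell markers 5 fell (3, 2, 2 and 2 with 1 library left out) and 1 rose, with the receptor Flt3 at -1.62 ± 0.27.

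**Figure D4:**
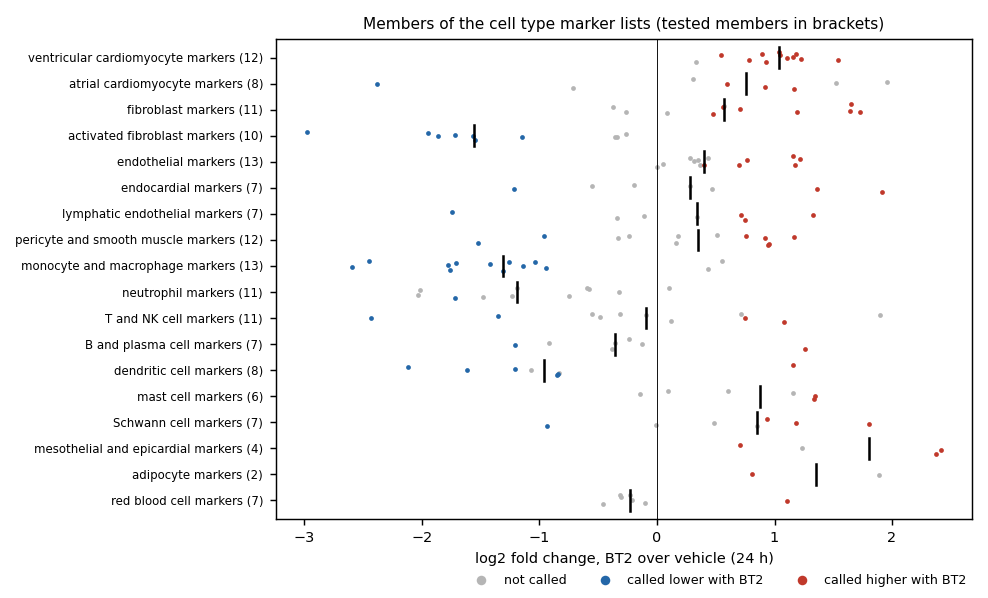
Log2 fold change of BT2 over vehicle at 24 h for the tested members of 18 cell type marker lists (points, number in brackets), with the median of each list as a black bar. Ventricular cardiomyocyte markers lie to the right of 0, activated fibroblast and most macrophage markers to the left, and the small lists of mast, mesothelial and fat cell markers rest on 2 to 6 tested genes.

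Some abundant genes were bounded to small changes. The 6 genes of at least 100 CPM whose interval bounded the change most tightly were Acin1, Dnaja2, Dnajc7, Fblim1, Lamp1 and Prpf8. Lamp1, a lysosomal membrane protein, had 457 and 472 CPM in vehicle and 462 and 469 CPM with BT2 (0.00 ± 0.10; edgeR adjusted p = 0.988), and the splicing factor Prpf8 had 237 and 230.5 against 237 and 233 CPM (0.01 ± 0.09). The groups overlapped in both. Of all genes tested, 2895 (19.0%) had a 95% interval that lay wholly within 0.5 of 0 on the log2 scale. Calls were more frequent at higher counts: 16.4% of genes under 1 CPM and 75.8% of genes of 500 CPM and over were called, the latter 94 higher and 53 lower of 194.

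The 24 h effects were set beside those at 4 h, whose 4 libraries are other samples, through a test of the difference itself. It called 1087 genes (7.14%), 718 with a higher and 369 with a lower log2 fold change at 24 h, and 927 of them were also called at 24 h. With total counts as the only scaling the same test gave 424 and 728, so which direction is more frequent depended on the scaling. The counts also fell steeply with single libraries left out: without vehicle replicate 1 at 24 h they were 41 and 7, without vehicle replicate 2 at 24 h 0 and 0, and without BT2 replicate 1 at 24 h 19 and 3. Leaving out vehicle replicate 2, BT2 replicate 1 or BT2 replicate 2 at 4 h gave 296, 223 and 86 higher and 67, 73 and 16 lower. Of the 6016 genes called at 24 h 1505 (25.02%) were also called at 4 h, which is 60.3% of the 2495 genes called there (16.4% of those tested), and 1449 of the 1505 had the same direction.

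Some energy lists had higher effects at 24 h than at 4 h in many members, and others in few. The median log2 fold change of the TCA list was 0.02 at 4 h and 0.75 at 24 h, and the difference was called for 10 of 21 members. For complex I these values were 0.03, 0.76 and 23 of 37, and for ventricular cardiomyocyte markers -0.04, 1.04 and 8 of 12. The difference was called higher for 6 of 9 subunits of complex III, 10 of 16 of ATP synthase and 5 of 15 of complex IV, and for 5 of 13 genes of coenzyme Q synthesis. It was called higher for 4 of 38 Slc25 carriers, 3 of 72 mitochondrial ribosomal proteins, 2 of 24 assembly factors, 1 of 14 genes of fusion, fission and mitophagy and 0 of 24 of import and folding, against 7.14% of all genes called in either direction. Gsn had a log2 fold change of -0.15 at 4 h and 1.73 at 24 h (difference 1.87; edgeR adjusted p = 0.0122), and Myh7b 0.27 and 2.297 (difference 2.03; edgeR adjusted p = 0.0131). DNA replication and repair went the other way, with a median of 0.24 at 4 h and -1.21 at 24 h and a lower effect called for 13 of 24 members. Fanca, of the Fanconi DNA repair complex, had 1.92 at 4 h, where it was called higher, and -1.74 at 24 h (difference -3.66, edgeR adjusted p = 0.0144). Its levels at 4 h were low, at 0.544 and 0.280 CPM in vehicle and 1.59 and 1.41 CPM with BT2. By contrast, ribosome biogenesis had medians of -0.71 and -0.91, the actin cytoskeleton -0.66 and -1.08 and ribosomal proteins -0.27 and -0.50, with 0 differences called in each, which does not show that they were equal.

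The nuclei give a second readout of the same treatment at 24 h, with 1 library a group and no test. The vehicle library held 11540 barcodes and 45471510 UMIs and the BT2 library 10497 barcodes and 32624251 UMIs, 37 barcodes occurred in both, and doublets were not removed. UMIs of all barcodes were summed per gene and scaled to the total UMIs of the library, without the TMM factors used for tissue. Ratios of these CPM are given with exact 95% intervals that cover counting error only. Of all 13982 genes with at least 50 UMIs, 56.2% had a ratio below 1. As a whole the nuclear sums did not follow the tissue: of 2601 genes called higher in tissue with at least 50 UMIs, 45.7% had a ratio above 1, against 42.3% of 3063 called lower and 43.8% of 8318 not called. Across all 13982 genes the tissue log2 fold change and the nuclear log2 ratio correlated at r = 0.21, a description over genes that share the same libraries.

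Some named genes had nuclear ratios in the direction of the tissue. Aox1 had a ratio of 4.16 (95% interval 3.58 to 4.84), Enpp2 of 3.67 (95% interval 3.20 to 4.22), Pla2g2a of 6.66 (95% interval 4.81 to 9.40) and the fibroblast gene Dcn, decorin, of 2.31 (95% interval 2.21 to 2.41). Among genes lower in tissue, Milr1 had 0.148 (95% interval 0.125 to 0.174), Spp1 0.362 (95% interval 0.350 to 0.373), Gpnmb 0.484 (95% interval 0.469 to 0.498) and Fn1 0.535 (95% interval 0.521 to 0.550). All 13 macrophage markers, all 26 lysosomal genes and all 17 antigen presentation genes had ratios below 1. So did immune lists without a general fall in tissue: 28 of 29 interferon genes, all 9 T and NK cell markers and 15 of 23 complement genes. The tissue medians of these members were -0.15, -0.32 and 0.56. In other groups the nuclei stood opposite to the tissue. Of the kinetochore list 23 of 24 had a ratio above 1 and of the activated fibroblast markers 9 of 10. Of the TCA list 2 of 21 and of ATP synthase 2 of 16 lay above 1. The cardiac stress and wall strain genes were split, with 10 above 1 and 8 below. Nppa had 1.24 (95% interval 1.14 to 1.35), Ltbp2 1.39 (95% interval 1.35 to 1.43) and Ccl2 1.25 (95% interval 1.16 to 1.35), all lower in tissue. For Nppb, also lower in tissue, the interval included 1 (0.936, 95% interval 0.856 to 1.02). Xirp2 had 2.01 (95% interval 1.98 to 2.04), Myc 1.58 (95% interval 1.46 to 1.70), Hsph1 3.11 (95% interval 2.94 to 3.30) and Bmp2 1.81 (95% interval 1.41 to 2.32), all lower in tissue, and Pln 0.664 (95% interval 0.634 to 0.696), Lpl 0.555 (95% interval 0.530 to 0.581) and Ckmt2 0.572 (95% interval 0.538 to 0.607), all higher in tissue.

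**Figure D5:**
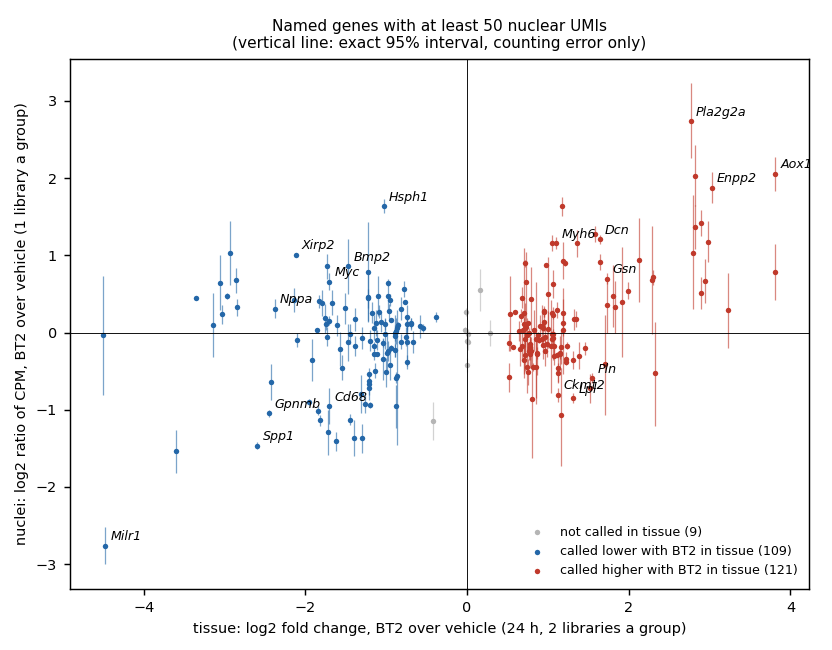
Tissue log2 fold change (2 libraries a group) against the log2 ratio of summed nuclear CPM (1 library a group) for 239 named genes with at least 50 nuclear UMIs; vertical lines are exact 95% intervals for counting error. Points fill all 4 quadrants: Aox1, Enpp2 and Pla2g2a lie at the upper right, Milr1, Spp1 and Gpnmb at the lower left, Xirp2 and Myc at the upper left and Pln, Lpl and Ckmt2 at the lower right.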

How the data were processed

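Polyadenylated RNA of AAR tissue was sequenced from TruSeq stranded libraries. Trim Galore, STAR, featureCounts, Cell Ranger and the build Rnor_6.0 are named in the submitters' processing notes, and Cell Ranger is 8.0.1 per the file headers. Neither the annotation nor the strand setting of the counting is stated, so genes that overlap or have near-identical copies are uncertain. The deposited tissue values were whole-number counts for 31580 genes, and the deposited nuclear values were UMI counts per barcode for 39537 features. The number of unassigned columns was 0.

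Counts of all 8 tissue libraries were fitted with edgeR 4.0.16 (limma 3.58.1, R 4.3.3), with filterByExpr, TMM factors, 1 mean per group and robust quasi-likelihood dispersion (4 residual degrees of freedom). The common biological coefficient of variation was 14.3%. Tests were two-sided, with Benjamini-Hochberg adjustment over all genes tested and adjusted p under 0.05 called. In a test on simulated data the fit missed more of the smaller planted changes than of the larger ones, and the share of false calls lay above the threshold. Lists (73, with 1641 entries of which 11 did not match) are described by counts and medians, with no set test. The comparison, the lists and the markers were chosen with earlier results of these data known.

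Among called genes with a proper symbol, at least 5 CPM on average and groups that did not overlap, the named genes were the 10 with the largest and the 10 with the lowest log2 fold change, and the 8 higher and 8 lower with the most CPM. Further named were, per list, 3 called genes ranked by p, and the 6 genes of at least 100 CPM bounded most tightly around 0. The 6 largest differences from 4 h each way were named too, among genes averaging at least 5 CPM over all 8 tissue libraries. Nppa, Nppb, Fosb, Egr1 and Vcam1 were reported in any case. Some named genes are not reported here. Ung, Pola1, Chek1 and the other genes with promoter letters were named for those letters. Alternatives were DESeq2 1.42.0, other scalings and filters, the 24 h libraries alone, a replicate block, a test against a 1.2-fold change and each library left out. RefSeq tables on GRCr8 gave promoters. Nuclear UMIs were summed with Python 3.11.15 (pandas 2.3.3, scipy 1.17.1).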

Additional observations from a re-analysis of the deposited data

Results flagged for a closer look

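The effect of BT2 differed between 24 h and 4 h, by edgeR's test of the difference with adjusted p under 0.05, for 718 genes that were higher and 369 that were lower at 24 h than at 4 h. Without vehicle replicate 2 at 24 h both counts were 0. The genes ranked here had a mean of at least 5 CPM over all 8 tissue libraries, and some had less at 1 of the times. The largest positive differences on the log2 scale were 3.71 for Aox1, 2.87 for Art1 and 2.81 for Hs3st5. They were followed by 2.70 for Ces1d, 2.67 for Penk and 2.63 for Enpp2. At 24 h Art1 had 0.416 and 1.57 CPM in vehicle and 4.70 and 4.20 CPM with BT2. The 24 h call of Art1 was lost without BT2 replicate 1, at 2.10. Penk, which encodes the enkephalin precursor, had 31.0 and 20.8 CPM in vehicle and 146 and 81.4 CPM with BT2 at 24 h. Hs3st5, a heparan sulphate sulphotransferase, had a log2 fold change of -0.81 at 4 h and 1.996 at 24 h.

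Among genes with the same mean level over all 8 libraries, the most negative differences were -2.52 for Uhrf1, -2.19 for Fam105a and -2.11 for Erbb3. They were followed by -2.10 for Cdca8, -2.10 for Mcm10 and -2.05 for Fanci. At 4 h Cdca8 had 1.74 and 1.26 CPM in vehicle and 2.06 and 1.69 CPM with BT2. Fanci had 1.41 and 0.911 against 1.82 and 1.75 CPM at 4 h. Uhrf1, which maintains DNA methylation at replication, had a log2 fold change of 1.05 at 4 h and -1.47 at 24 h, and Mcm10, a replication factor, of 1.09 and -1.01. Erbb3, a neuregulin receptor, had 40.5 and 50.3 CPM in vehicle and 17.1 and 22.0 CPM with BT2 at 24 h.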

How the results depend on the processing

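The counts of genes called higher and lower stayed within 1.5 times of 2873 and 3143 under every other scaling, filter, tool and block tried, at 2079 to 3370 and 2125 to 3554, and 0 of the 6016 genes were called in the opposite direction under any of these or with a library left out. Leaving out 1 library gave 1484 to 3103 higher and 1492 to 3419 lower. The difference from 4 h was less stable, at 0 to 894 higher and 0 to 549 lower with 1 library left out. It gave 424 and 728 with total counts alone, 1089 and 730 with all genes of at least 1 count, and 596 lower with DESeq2; the cause was not tested. What libraries with equal replicate numbers share is not stated in the labels. Their deviations from the group mean correlated across genes at -0.003 at 4 h and 0.01 at 24 h. With 2 libraries a group this cannot settle whether they share a batch. With a replicate block 2553 genes were called higher and 2779 lower at 24 h, and the difference from 4 h 105 and 20 genes. Of 243 called named genes 208 were called in all 8 fits that left out 1 library. With total counts alone the median of all genes moved to -0.09, and the sign of the list median turned for mitochondrial protein import (-0.025) and semaphorins (-0.017). With 1 library left out it turned for BMP signalling (-0.20 to 0.070), B and plasma cell markers (-0.74 to 0.065) and mast cell markers (-0.027 to 1.26). Of 68 list counts of at least 4, 30 moved by at most 1.5 times when any 24 h library was left out. Some list counts also moved by over 1.5 times under other settings. Total counts alone gave 6 Wnt genes and 3 semaphorin genes called higher, all genes of at least 1 count gave 5 early response, 2 ERK and 7 phagocytosis genes called lower, and a replicate block gave 3 BMP genes called lower. The 24 h libraries alone gave 10 endothelial markers called higher. DESeq2 and upper quartile factors gave 2 and 3 dendritic cell markers called lower.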

Other observations

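Detoxifying and sterol genes formed further groups. Of 15 tested glutathione S-transferases, a family with close copies that can share reads, 10 rose and 0 fell (median 0.85), with Gstm7 at 13.3 and 12.6 CPM in vehicle and 45.1 and 37.4 CPM with BT2 (1.67 ± 0.13; edgeR adjusted p = 0.000344) and Gstm2 at 111 and 113 against 277 and 230.3 CPM (1.18 ± 0.16). Of 20 genes of cholesterol synthesis 12 fell and 1 rose. Idi1, an isomerase of the mevalonate pathway, had 28.3 and 22.2 against 9.76 and 11.7 CPM (-1.23 ± 0.16), and Msmo1, a sterol oxidase, fell by 0.97 ± 0.15. Fdft1, squalene synthase, was the exception, with 52.7 and 50.8 CPM in vehicle and 109.6 and 113 CPM with BT2 (1.11 ± 0.10; edgeR adjusted p = 0.000538). Leaving out vehicle replicate 1, vehicle replicate 2, BT2 replicate 1 or BT2 replicate 2 gave 5, 5, 5 and 9 cholesterol genes called lower. Of 31 semaphorins, plexins and neuropilins 5 rose (1, 2, 1 and 3 with the same libraries left out) and 4 fell. The share called was 29.0%, below the 39.5% of all genes tested. The guidance ligands Sema3f and Sema3c, named for their small p, fell by 0.97 and 1.05.

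One uncharacterised locus, LOC102548789, chosen after its values were seen, was listed at 0 in both vehicle libraries at 24 h and in all 4 libraries at 4 h, and had 2.85 and 5.42 CPM in the BT2 libraries at 24 h.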
